A study of Mus musculus with 8 samples.

Results

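The caspases Casp1, Casp4, Casp6 and Casp8, the gasdermins Gsdmd, Gsdmc2 and Gsdmc4, and the inflammasome adaptor Pycard were followed in sorted wild-type (WT) and cancer organoid cells. The 8 genes were looked up by symbol among the 13420 genes of the read count table. 6 of them had a row, and Gsdmc2 and Gsdmc4 had none, so these gasdermins are not analysed here. Casp1, Casp6, Casp8, Gsdmd and Pycard had enough reads to be tested, as did 5264 genes in all, and Casp4 is given as counts only.

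Organoids are epithelial structures grown from intestinal stem cells in a gel. WT organoids of the small intestine carried mTmG, a reporter that gives membrane-bound tdTomato, on C57BL/6, and cancer organoids carried Villin-CreERT2 with alleles that include Tr53 fl/R172H and Apc fl/fl on C57BL/6 (F6) with the green protein Dendra2. The Villin promoter drives this Cre in intestinal epithelium, and Cre acts once tamoxifen is given. Cells were grown pure or mixed at a ratio of 2 WT to 1 cancer, and on day 3 live cells were sorted by color. Live cells were those negative for the dye DAPI, so the libraries leave out cells that it stained. Comparisons of mixed with pure cells ask what growth in mixed culture changes, and further comparisons set cancer against WT cells. There are 4 groups of 2 libraries, which go by the well in their label: A01 and A05 are pure WT, A02 and A06 mixed WT, A03 and A07 pure cancer, and A04 and A08 mixed cancer. Nothing states whether the 2 libraries of a group came from separate cultures, so p-values measure the spread between these libraries, which may be technical. Depth was 1103139 reads in A01 and 1905693 in A05 of pure WT, 73109 and 515035 in mixed WT, 210030 and 333831 in pure cancer, and 4733121 and 201137 in mixed cancer libraries. In the shallowest library, A02, a single read is worth 13.1 CPM, the reads scaled to a common library size with TMM factors. The 7 epithelial markers, such as Epcam and Krt8, summed to 13999 CPM in A06 and to between 3464 and 6070 CPM in the other libraries, and the stromal and endothelial markers to at most 5.25 CPM.

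Caspases are proteases that take cells apart in apoptosis or open the plasma membrane in pyroptosis. In pyroptosis, a sensor of microbial or stress signals gathers the adaptor ASC, the product of Pycard, which activates caspase-1. Caspase-1 and the lipopolysaccharide receptor caspase-4 (caspase-11 in mice) cut gasdermin D, whose released part forms pores in the membrane. Caspase-8 starts apoptosis at death receptors and restrains necroptosis, and caspase-6 is classed as an executioner that cuts lamins and other substrates. In the gut, pyroptosis and the shedding of dying cells into the lumen remove infected or damaged epithelial cells.

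Pycard and Casp1, the adaptor and the protease of the canonical inflammasome, were both near or at 0 reads in the cancer libraries. Their promoters, the 250 bases before each start, are shown for this reason, from RefSeq on GRCm38.p6. The Pycard promoter lies at chr7:127993868-127994117 on the minus strand and the Casp1 promoter at chr9:5298267-5298516 on the plus strand. Capitals mark matches to the searched motifs.
Pycard: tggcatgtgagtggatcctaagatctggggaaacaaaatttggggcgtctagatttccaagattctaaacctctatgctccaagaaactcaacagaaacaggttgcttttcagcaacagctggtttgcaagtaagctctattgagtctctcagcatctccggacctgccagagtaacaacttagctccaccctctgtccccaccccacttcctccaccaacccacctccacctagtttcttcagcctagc
Casp1: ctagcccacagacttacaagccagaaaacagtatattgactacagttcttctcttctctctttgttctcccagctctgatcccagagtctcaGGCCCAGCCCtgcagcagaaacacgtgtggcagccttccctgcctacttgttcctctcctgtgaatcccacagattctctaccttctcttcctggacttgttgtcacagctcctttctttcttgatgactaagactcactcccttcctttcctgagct
The motifs searched on both strands were AP-1 (TGANTCA), IRF, NF-kB, STAT (TTCNNNGAA) and TCF/LEF (CTTTGA). These motifs have no match in the Pycard window, and the Casp1 window holds 1 match to the NF-kB motif, GGCCCAGCCC, 158 bases before the start and read on the reverse strand. Of all 32851 promoters of this length, 6.75% hold the AP-1 motif, 2.98% IRF, 45.8% NF-kB, 7.02% STAT and 13.8% TCF/LEF. GC content was 48.8% in the Pycard and 49.2% in the Casp1 window, against a median of 52.4% over all promoters. Pycard has 3 exons at chr7:127989708-127993867 and overlaps Gm45205, a gene model of unknown function on the opposite strand, whose reads cannot be told apart where counting ignores strand, and Casp1 has 10 exons at chr9:5298517-5307265.

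Pycard was abundant in WT cells and nearly absent from cancer cells. It had 490 and 522 reads in pure WT libraries A01 and A05 and 31 and 164 reads in mixed WT libraries A02 and A06, or 448, 293, 406 and 372 CPM. The cancer libraries held 1 read in A03, none in A07, 5 in A04 and none in A08. The cancer libraries were at or below 5.25 CPM and all 4 WT libraries lay far above them, while pure and mixed WT overlapped. Pooled over libraries, pure WT had 185 times the Pycard level of pure cancer cells, which rests on 1 cancer read and has a 95% counting interval of 33.1 to 7309. Mixed WT had 400 times the level of mixed cancer cells, with an interval of 168 to 1244 that covers counting error only. All 5 mixed cancer reads came from A04, the much deeper mixed cancer library. The fitted difference of mixed cancer from mixed WT cells was -8.55 on the log2 scale (standard error (SE) 0.823, adjusted p = 1.71e-07, edgeR quasi-likelihood test, Benjamini-Hochberg), and that of pure cancer from pure WT cells had an adjusted p of 3.81e-06 in the same test. In WT cells, the mean was 371 ± 110 CPM (SD, n = 2) in pure and 389 ± 24.6 CPM (SD, n = 2) in mixed culture. The log2 fold change on mixing was 0.06 (95% interval -0.96 to 1.09, adjusted p = 0.995, edgeR), which leaves room for a change of about 2-fold either way.

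Casp1 had 16 and 51 reads in pure WT libraries, 0 in A02, 14 in A06, and 0 in each of the 4 cancer libraries. Levels were 14.6 and 28.7 CPM in pure WT and 31.7 CPM in A06, and 3 reads, the limit that a count of 0 allows, would be 39.3 CPM in A02. The empty A02 library therefore does not set Casp1 apart from the other WT libraries, and the log2 fold change on mixing in WT cells was 0.02 (SE 1.06, adjusted p = 1.00, edgeR). Against 3 reads over the pooled mixed cancer libraries (0.566 CPM), Casp1 was at least 47.8-fold lower in mixed cancer than in mixed WT cells (adjusted p = 0.0127, edgeR), and at least 34.0-fold lower once the counting error of the WT reads is included. All 14 mixed WT reads came from A06, so this comparison has 1 WT library with any read. The limit on the cancer side rests mostly on A04, since 3 reads in A08 alone would be 15.6 CPM. With 0 reads in cancer cells, Casp1 passed the filter on low counts through WT libraries alone, which its p-values do not allow for. In pure cultures, where 3 reads are 5.72 CPM in cancer cells, Casp1 was at least 4.08-fold lower than in WT cells, with counting error allowing a ratio of cancer to WT of up to 0.310, and the adjusted p was 0.0962 (edgeR). This difference passed the threshold when A02 was left out (adjusted p = 0.0456, edgeR) or when the 4 pure libraries were fitted alone (adjusted p = 0.0416, edgeR). Casp1 in mixed cultures was tested in 7 of 14 alternatives and called in 6 of the 7. It fell under the filter on low counts in the others, among them barcode counts, transcript counts and the fits without A01, A04, A05 or A06. All 7 keep A06, which holds every mixed WT read, so they cannot show whether the call depends on that library. DESeq2 called neither Casp1 difference (adjusted p = 0.748 in pure and 0.707 in mixed cultures).

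**Figure D1:**
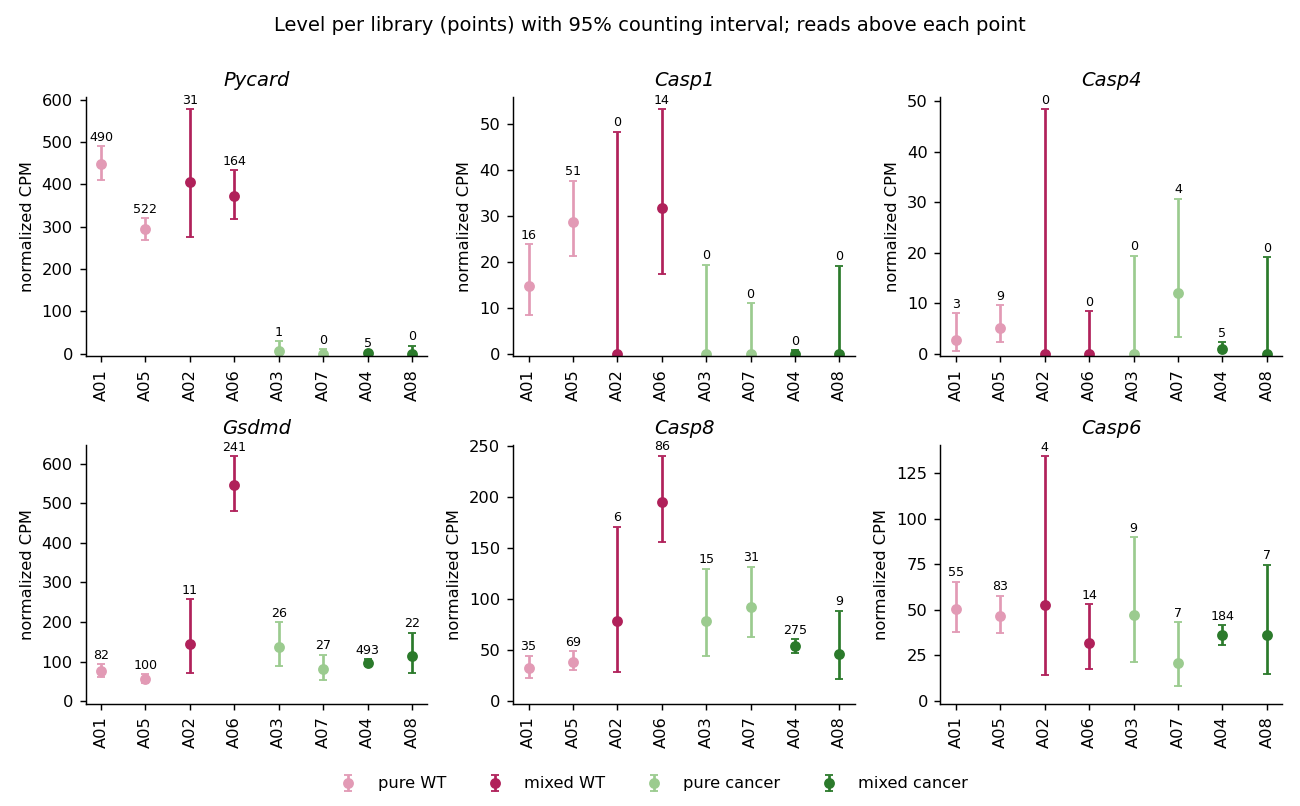
Each panel gives the level of 1 gene in normalized CPM (linear axis) in the 8 libraries, with the 95% counting interval as bars and the reads printed above. Pycard lay between 293 and 448 CPM in the WT libraries and at or below 5.25 CPM in the cancer libraries, and Gsdmd was highest in mixed WT library A06, at 546 CPM.

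Casp4 was too low to compare. Its reads were 3 and 9 in the pure WT libraries, 0 and 0 in mixed WT, 0 and 4 in pure cancer, and 5 and 0 in mixed cancer libraries. Pure WT libraries, at 2.75 and 5.06 CPM, lay above mixed cancer libraries A04 and A08, at 0.978 and 0 CPM. In A08, 3 reads would be 15.6 CPM, so its count of 0 does not set it apart. Both mixed WT libraries are empty, where 3 reads over the group would be 5.80 CPM against 4.18 CPM measured in pure WT. The other pairs of groups overlap or share counts of 0. Pooled Casp4 was 1.82 times as high in pure cancer as in pure WT cells (counting interval 0.429 to 6.02). Its level in mixed cancer was 0.124 times that in pure cancer cells (0.0266 to 0.623), and all 4 pure cancer reads came from A07. Casp4 lies next to Casp1, with 9 exons at chr9:5308828-5336783.

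Gsdmd, the pore-forming substrate of caspase-1 and caspase-4, rose in WT cells that were mixed with cancer cells. It had 82 and 100 reads in pure WT libraries A01 and A05, or 75.0 and 56.2 CPM. Mixed WT libraries A02 and A06 had 11 and 241 reads, or 144 and 546 CPM. Both mixed WT libraries were above both pure WT libraries, and A06 (95% counting interval 479 to 619 CPM) was above A02 (72.0 to 258 CPM). The A02 interval overlapped that of A01 (59.7 to 93.2 CPM), so only A06 was apart from both pure WT libraries beyond counting error. The mean went from 65.6 ± 13.3 to 345 ± 284 CPM (SD, n = 2 each), and the log2 fold change was 2.48 (SE 0.573, 95% interval 1.30 to 3.67, adjusted p = 0.0389, edgeR). Gsdmd was called in 11 of 14 alternatives. Without A06 the Gsdmd estimate was 1.05, and the median over all tested genes moved from -0.10 to -0.73. The estimate was 2.69 without A01 and 2.29 without A05. The call was lost in each of these fits, which leave 1 library in a WT group. Barcode counts, the number of different barcodes seen for a gene (at most 256, so that molecules with the same barcode count once), were 42 in A01, 50 in A05, 9 in A02 and 108 in A06, and gave 2.27 (adjusted p = 1.81e-05, edgeR). Transcript counts, which the authors corrected for shared barcodes, gave 2.62 (adjusted p = 0.000548, edgeR). Gsdmd has 11 exons at chr15:75862327-75867408, and none of the 50-base windows in its last 500 bases was found in a transcript of another gene.

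In cancer cells Gsdmd was not called on mixing. Pure cancer libraries A03 and A07 had 26 and 27 reads, or 136 and 80.8 CPM, and mixed cancer libraries A04 and A08 had 493 and 22 reads, or 96.5 and 114 CPM. The mixed libraries fell between the pure ones, and the log2 fold change was -0.04 (95% interval -1.26 to 1.18, adjusted p = 1, edgeR). The difference between the WT and the cancer response was 2.52 (SE 0.814, adjusted p = 0.466, edgeR, and 0.00503 before adjustment), which did not pass the threshold on read counts. It passed in 1 of 13 alternatives, barcode counts (2.35, adjusted p = 0.0342, edgeR), and not on transcript counts (2.78, adjusted p = 0.0598, edgeR). The log2 fold change of Gsdmd in mixed cancer over mixed WT cells was -1.82 (adjusted p = 0.0630, edgeR), and the difference met the threshold in 7 of 14 alternatives.

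Casp8, the initiator caspase of death receptors, had higher levels in mixed than in pure WT libraries without passing the threshold. Pure WT libraries A01 and A05 had 35 and 69 reads, or 32.0 and 38.8 CPM, and mixed WT libraries A02 and A06 had 6 and 86 reads, or 78.6 and 195 CPM. As with Gsdmd, both mixed WT libraries were above both pure ones and A06 was the highest. The 95% counting interval of A02 (28.9 to 171 CPM) holds both pure WT values, while that of A06 (156 to 241 CPM) lies above them. The mean was 35.4 ± 4.77 CPM in pure and 137 ± 82.2 CPM in mixed WT (SD, n = 2 each), and the log2 fold change was 2.05 (SE 0.617, 95% interval 0.77 to 3.32, adjusted p = 0.148, edgeR, and 0.00298 before adjustment). The same difference was called on barcode counts (1.96, adjusted p = 0.00584, edgeR), on transcript counts (2.22, adjusted p = 0.0110, edgeR), by DESeq2 (2.12, adjusted p = 0.0495) and without A02 (2.41, adjusted p = 0.0390, edgeR). These 4 are the only calls among the 14 alternatives. Without A06 the log2 fold change of Casp8 was 1.06, with a median of -0.73 over all tested genes. It was 1.90 without A01 and 2.20 without A05.

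In the cancer libraries the order of Casp8 was the opposite, again without passing the threshold. Pure cancer libraries had 15 and 31 reads, or 78.7 and 92.8 CPM, and mixed cancer libraries 275 and 9 reads, or 53.8 and 46.7 CPM. Both mixed libraries were below both pure ones, and the log2 fold change was -0.75 (95% interval -2.05 to 0.55, adjusted p = 1, edgeR). The difference between the responses of the 2 cell types was 2.80 (SE 0.880, adjusted p = 0.431, edgeR, and 0.00410 before adjustment) and was positive in all 13 alternatives, with adjusted p between 0.0773 and 1.00. Pure cancer libraries were above pure WT libraries by 1.28 (adjusted p = 0.244, edgeR, and 0.0499 before adjustment), and mixed cancer libraries were below mixed WT libraries by a difference of -1.52 (adjusted p = 0.194, edgeR, and 0.0231 before adjustment). Casp8 has 9 exons at chr1:58795374-58847503 and overlaps Gm37760 on the same strand. Of its 451 windows of 50 bases at the 3' end, 21 (4.66%) also occur in Gm20257, and reads there or in the overlap cannot be assigned to Casp8 alone.

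**Figure D2:**
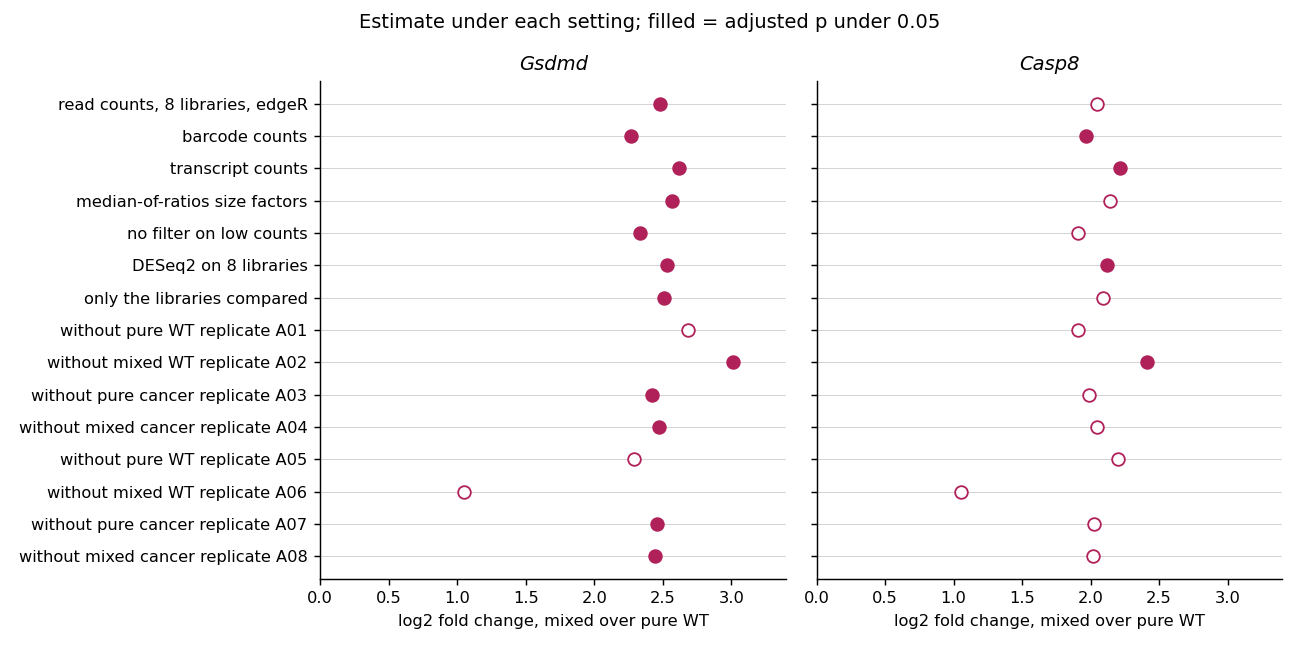
The x axis gives the log2 fold change of mixed over pure WT cells for Gsdmd (left) and Casp8 (right), and each row is a setting of the analysis, filled where the adjusted p was under 0.05. All estimates lie above 0, and both genes drop to about 1.05 without mixed WT library A06. In that fit the median over all tested genes also moved, from -0.10 to -0.73.

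Casp6, the executioner among the members, passed the threshold in no comparison. Pure WT libraries A01 and A05 had 55 and 83 reads, with 4 and 14 in mixed WT, 9 and 7 in pure cancer, and 184 and 7 in mixed cancer libraries. Group means were 48.5 ± 2.61, 42.1 ± 14.6, 34.1 ± 18.6 and 36.2 ± 0.218 CPM (SD, n = 2 each), in that order. The WT groups overlapped and so did the cancer groups. The log2 fold change on mixing was -0.34 in WT cells (95% interval -1.90 to 1.22, adjusted p = 0.940, edgeR) and 0.15 in cancer cells (adjusted p = 1, edgeR), and the interval in WT cells includes changes of more than 2-fold in either direction. The log2 fold change of pure cancer over pure WT cells was -0.57 (adjusted p = 0.736, edgeR). Casp6 has 7 exons at chr3:129901425-129914103.

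Counted together, 1 of the 5 tested members was called on mixing in WT cells, Gsdmd, against 39 of 5264 genes (0.741%). 2 of the 5, Gsdmd and Casp8, had groups that did not overlap there, as did 43.8% of tested genes, and the median log2 fold change was 0.06 over the members and -0.10 over all tested genes. On mixing in cancer cells edgeR called 0 of 5 members and 0% of tested genes, 0 members had an unadjusted p under 0.05, DESeq2 called 0 as well, and 1 member, Casp8, had groups that did not overlap, against 24.6% of genes. For the difference between the responses, 0 members were called by edgeR or DESeq2 and 2 had an unadjusted p under 0.05, Casp8 and Gsdmd, while 4 of 5264 genes (0.076%) were called. In pure cancer against pure WT cells, 1 of 5 members was called lower, Pycard, against 9.95% of genes called in either direction, and 4 of 5 did not overlap, against 52.6%. In mixed cancer against mixed WT cells, 2 of 5 were called lower, Pycard and Casp1, against 6.42% of genes, and 3 of 5 did not overlap, against 44.9%. Both Pycard and Casp1 entered the tests through their WT reads alone, since their cancer reads were too few for the filter on low counts.

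**Figure D3:**
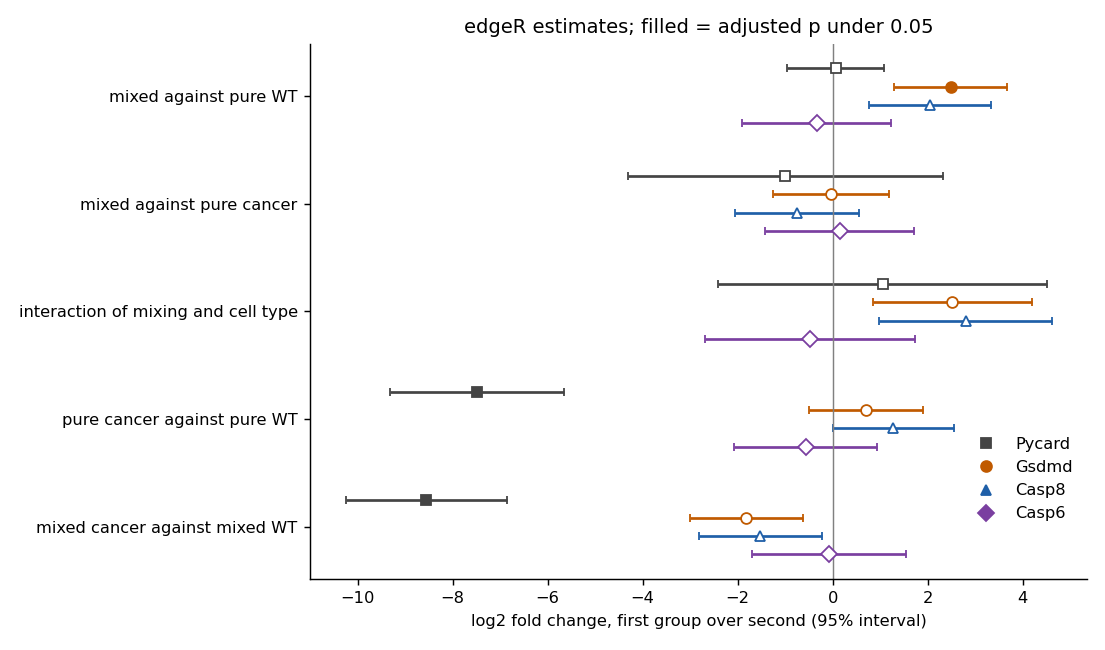
Points give the edgeR log2 fold change of 4 members in the 5 comparisons with the 95% interval, and are filled where the adjusted p was under 0.05. Pycard is filled in both cancer against WT comparisons, at -7.50 and -8.55, and Gsdmd in mixed against pure WT cells, at 2.48. Casp1 is left out because its fitted change rests on groups with 0 reads.

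The members were also set beside the cell types of the organoids. The 7 enterocyte markers, such as Fabp1 and Apoa1, summed to between 1705 and 1843 CPM in the pure WT libraries, between 1541 and 1835 in mixed WT, 10.5 and 12.0 in pure cancer, and 0 and 6.26 in mixed cancer libraries. The 5 goblet cell markers, such as Tff3 and Zg16, summed to between 2320 and 3484 CPM in WT and to between 6.46 and 15.6 CPM in cancer libraries. These marker sums were low in the same libraries as Pycard and Casp1, as was that of the 3 enteroendocrine markers, at most 0.587 CPM in cancer libraries. Other sums were not near 0 in cancer libraries, with 89.2 to 420 CPM for stem cell, 493 to 861 CPM for Paneth cell and 42.0 to 114 CPM for tuft cell markers. These sums came from part of each list. Of the 4 tuft cell markers, 3 had 0 reads in every cancer library. Of the 5 Paneth cell markers, 3 had 0 reads in A03, 2 in A07, 1 in A04 and 4 in A08. Of the 5 stem cell markers, 3 had 0 reads in A03, 2 in A07, 1 in A04 and 2 in A08. Of 3 tested Paneth cell genes, 2 were called lower and 1 higher in pure cancer than in pure WT cells. The part of any of these sums in the Pycard and Casp1 differences was not tested. Fewer cells of a type and less RNA per cell cannot be told apart in bulk samples. In WT cells, where Gsdmd rose on mixing, the 5 stem cell markers summed to between 418 and 579 CPM in pure and between 78.6 and 195 CPM in mixed libraries. The 5 Paneth cell markers summed to between 989 and 2121 CPM in pure and between 406 and 809 CPM in mixed WT, and the 4 tuft cell markers to between 7.32 and 10.7 CPM and between 20.4 and 39.3 CPM. These tuft sums rest on 8 reads in A01, 19 in A05, 3 in A02 and 9 in A06, too few to compare. In A02, 3 reads are also the limit set for a count of 0. The epithelial markers summed to 5545 CPM in A02 and to 13999 CPM in A06, the library with the highest Gsdmd and Casp8 levels, against 5283 and 6070 CPM in the pure WT libraries. Single epithelial markers differed, with log2 fold changes on mixing in WT cells from -0.54 for Vil1 to 1.08 for Krt8. Of the 7, 5 were positive and 2 negative, with 0.03 for Epcam, and 0 were called. The part of these marker sums in the Gsdmd and Casp8 values was not tested. Of 11 immune markers, 5 had a row, and their sum was at most 4.53 CPM in WT libraries, and between 0 and 71.8 CPM in pure cancer and 12.1 and 25.9 CPM in mixed cancer libraries, where Pycard and Casp1 were near 0.

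The genes whose level was most like that of Gsdmd and Casp8 over the 8 libraries were found among 2744 tested genes with a mean of at least 50 reads. For Gsdmd these were Plekhb2 (Pearson r = 0.974 of log2 CPM) and Aldoc (r = 0.919), and for Casp8 they were AA467197 (r = 0.927) and Tmsb4x (r = 0.894). The 8 points share 4 groups and depths that differ widely. All 4 genes were highest in A06, where Plekhb2 reached 301 CPM against 110 to 129 CPM in pure WT, and AA467197 reached 1063 CPM against 71.4 to 142 CPM.

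Of the inflammasome sensors and cytokines, 12 of 17 listed genes had a row and 1 was tested, Nlrp6, a sensor of the intestinal epithelium. Nlrp6 followed the pattern of Pycard, with 260 reads in A01, 371 in A05, 9 and 91 in mixed WT, 0 and 0 in pure cancer, and 10 and 0 in mixed cancer libraries. It was at least 38.4-fold lower in pure cancer than in pure WT cells against the limit of 3 reads (adjusted p = 1.77e-05, edgeR), and at least 31.2-fold with the counting error of the WT reads. Mixed WT cells had 102 times the Nlrp6 level of mixed cancer cells (counting interval 53.5 to 220), with a fitted difference of -6.47 (SE 0.821, adjusted p = 1.18e-05, edgeR). All 10 mixed cancer reads came from A04. Nlrp6 entered the tests through its WT reads alone, which the p-values against cancer cells do not allow for. On mixing in WT cells its log2 fold change was -0.39 (SE 0.557, adjusted p = 0.888, edgeR). The other sensors had few reads, and the Naip genes are close paralogs whose reads may be split or dropped. Naip2, which recognizes the rod protein of bacterial secretion systems, had 3 reads in A01, 19 in A05, 0 and 6 in mixed WT, 0 in pure cancer, and 9 and 0 in mixed cancer libraries, and Nlrp10 had 5 reads in A06 and 27 in A04 alone. Chosen after the values were seen, Il18, a cytokine that caspase-1 matures, had 13 reads in 7 barcodes in A06 and at most 3 reads in each of the other libraries.

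Of the other caspases and gasdermins, Casp2, an initiator-type caspase, and Ninj1 were tested, and neither passed the threshold of edgeR or DESeq2 or had an unadjusted p under 0.05 in any comparison. Casp2 and Casp9 had 0 and 1 reads in A02 and 13 and 12 reads in A06, and the estimate for Casp2 on mixing in WT cells was -1.54 (SE 0.844, adjusted p = 0.594, edgeR). Ninj1, which ruptures the membrane after gasdermin pores form, had 66.8 CPM in A01, 72.5 in A05, 26.2 in A02 and 36.2 in A06. Its mixed WT libraries were both below the pure ones, opposite to Gsdmd, with a log2 fold change of -1.06 (SE 0.675, adjusted p = 0.671, edgeR). Gsdma had 3 reads in A03 and 40 in A04 and none elsewhere, and Dfna5, which encodes gasdermin E, had at most 7 reads in any library.

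Genes of other routes of cell death were not called by edgeR or DESeq2 in any comparison either. On mixing in WT cells, the 6 tested genes of death receptors and necroptosis all had positive estimates (median 0.74 on the log2 scale, against -0.10 over all tested genes), and 0 were called by edgeR and 0 had an unadjusted p under 0.05. Estimates on the log2 scale were 0.03 for Ripk3, the kinase of necroptosis (SE 0.677, adjusted p = 0.999, edgeR), 0.69 for Tnfrsf1a, a receptor of tumor necrosis factor (SE 0.786, adjusted p = 0.844, edgeR), and 1.13 for Mlkl, which Ripk3 phosphorylates (SE 1.24, adjusted p = 0.835, edgeR), with 7 Mlkl reads in A06 and 0 in A02. The same 6 genes had a median of 0.72 in pure cancer over pure WT cells, where 0 were called by edgeR and 1, Cflar, had an unadjusted p under 0.05. Of 5 tested genes of the apoptosome and inhibitors of apoptosis, Birc5, which is also a mitotic gene, had the lowest unadjusted p on mixing in WT cells, with 131 and 107 CPM in pure and 0 and 27.2 CPM in mixed WT libraries (-2.54, SE 0.841, adjusted p = 0.228, edgeR). Cycs, cytochrome c, had an estimate of 0.86 (SE 0.608, adjusted p = 0.717, edgeR) and has many near-identical copies in the genome, so its counts are uncertain. That of Aifm1, a mitochondrial flavoprotein, was 0.41 (SE 0.955, adjusted p = 0.940, edgeR). Of 7 tested caspase substrates, the most abundant, Krt18, Lmna and Acin1, had estimates of 0.92, 0.82 and -1.90 in WT cells (adjusted p = 0.557, 0.702 and 0.333, edgeR), and 0 were called by edgeR in any comparison, while 2, Acin1 and Panx1, had an unadjusted p under 0.05 on mixing in WT cells.

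**Figure D4:**
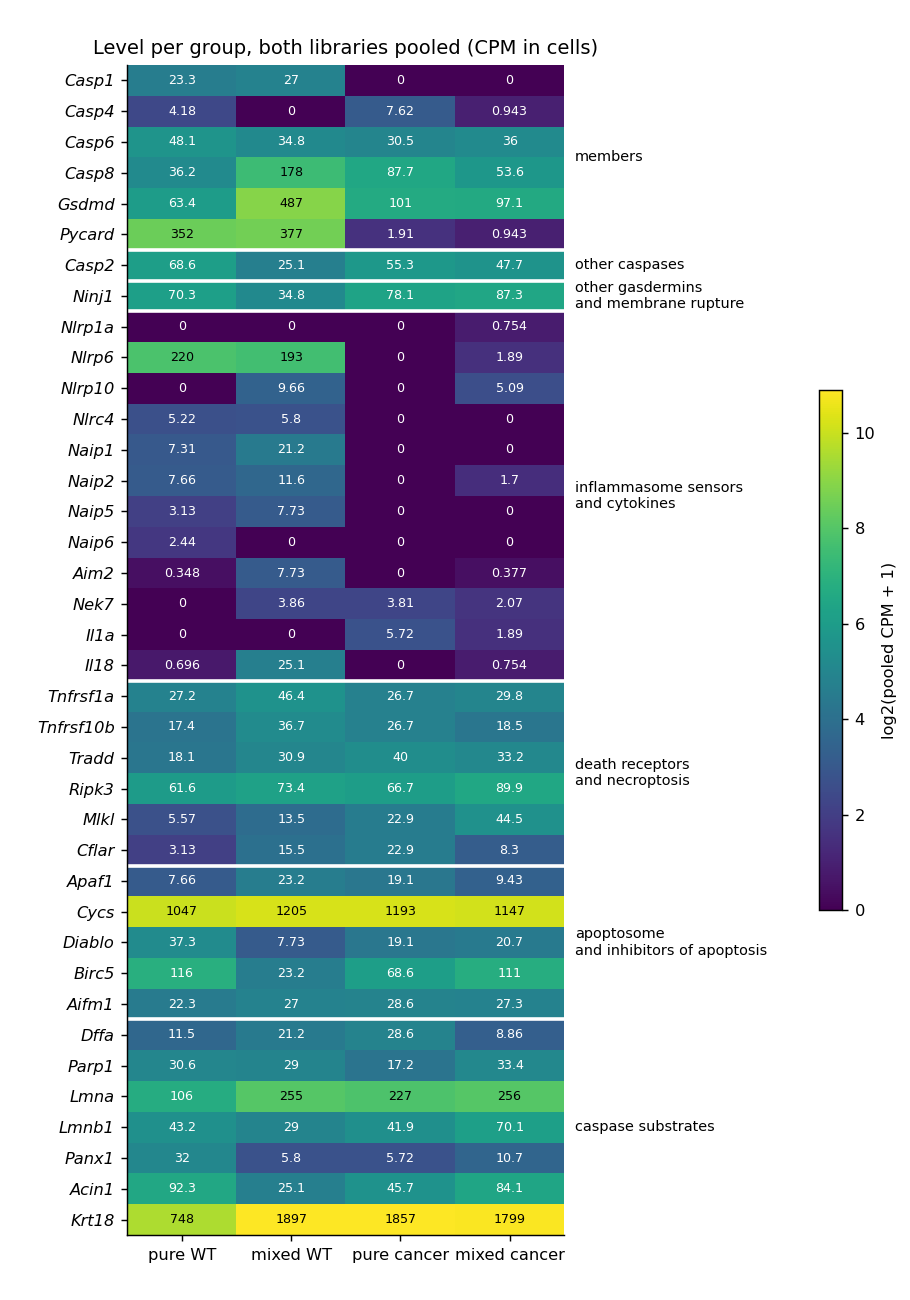
Cells give the level of each gene per group in CPM, both libraries pooled, and colors the same on a log2(CPM + 1) scale, for the members, tested genes of the other lists and the inflammasome genes with a row. Casp1, Pycard and Nlrp6 are at 23.3, 352 and 220 CPM in pure WT and at 0, 1.91 and 0 CPM in pure cancer cells.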

How the data were processed

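Bulk RNA of sorted cells was sequenced by CEL-Seq, which reads transcript 3' ends and tags molecules with short random barcodes. By the study's methods, BWA mapped the second read of each pair to RefSeq transcripts of mm10, ambiguous reads were dropped, and featureCounts gave the reads per gene. The authors deposited read counts and barcode counts without normalization, and estimated counts of transcripts (expected counts, rounded here) that the authors corrected for barcode collisions. Reads include amplification copies. A table by the authors of fold changes and p-values for mixed against pure WT cells (DESeq2 1.22.2) was not used. 2 entries that are not mouse genes, with 1 read in all, were left out.

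Read counts of all 8 libraries were fitted together in edgeR 4.0.16 (R 4.3.3; TMM factors, filterByExpr at a minimum count of 10, quasi-likelihood test, Benjamini-Hochberg adjustment over the 5264 tested genes, called under 0.05). The SE is the absolute log2 fold change over the root of the F statistic. CPM uses TMM-scaled library sizes. Counting intervals (95%) are exact Poisson for levels and Clopper-Pearson for ratios of pooled reads, a count of 0 was bounded by 3 reads over the pooled group unless a library is named, and both cover counting error only. No 2 libraries of a group held the same values (chi-square per degree of freedom of their reads 4.44 to 13.5, a measure that amplification copies raise). The labels pair no libraries. The edgeR step was tested on simulated data for the 4 comparisons between groups, not for the difference between responses.

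The members and lists were chosen with earlier results of these data known. Named genes are all members, genes of the pathway lists called in any comparison, the 3 with the most reads per list, and the 2 most similar genes for each member with at least 10 reads in at least 6 libraries. An allele of the cancer line and a gene of the lists are not reported here. Positions are from GENCODE vM21 (GRCm38), and promoters of 5 of the 8 symbols were found in RefSeq.

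Alternatives were barcode counts, transcript counts, median-of-ratios factors, no filter, DESeq2 1.42.0, only the libraries compared, and each library left out in turn. A block by wells was added after the data were seen.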

Additional observations from a re-analysis of the deposited data

How the results depend on the processing

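Of 5 tested members, 1 was called on mixing in WT cells, 2 from barcode counts, from transcript counts or by DESeq2, and 0 to 2 with a library left out (0 without A01, A05 or A06, 2 without A02). For the difference between responses, 0 were called and 1, Gsdmd, from barcode counts. In pure cancer against pure WT cells 1 was called, 2 with only the libraries compared, and 1 to 2 with a library left out (2 without A02). In mixed cancer against mixed WT cells 2 were called, 1 by DESeq2 or with only the libraries compared, and 1 to 3 with a library left out (1 without A04, A05 or A06). For mixed cancer against mixed WT cells, transcript counts and median-of-ratios factors each called 3, and barcode counts called 2, Pycard and Gsdmd. Casp1 was not tested there from barcode or transcript counts, or with only the libraries compared. It was also not tested without A01, A04, A05 or A06, so these counts cover fewer members. Pycard was called lower in both cancer against WT comparisons in 14 of 14 alternatives. Values near 0 changed sign. So did Pycard values that rest on few cancer reads, -0.99 on mixing in cancer cells and 1.06 for the difference between responses. On mixing in WT cells Casp1 was -0.084 without the filter, -0.36 by DESeq2 and -0.0056 to 0.49 with a library left out, Casp6 was -0.65 to 0.025 with a library left out, and Pycard was -0.12 without the filter and -0.17 to 0.41 with a library left out. On mixing in cancer cells Casp6 was -0.0060 from transcript counts and -0.31 to 0.79 with a library left out, Gsdmd -0.33 to 0.36, and Pycard, with 6 cancer reads in all, -3.31 to 3.39. The Pycard difference between responses was -3.42 to 3.39 with a library left out. Casp6 in mixed cancer against mixed WT cells was 0.19 from barcode counts and -0.48 to 0.19 with a library left out. The cause of these changes was not tested.

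Over all genes, 39 were called on mixing in WT cells, 93 from barcode counts, 82 from transcript counts, 68 without the filter, 69 by DESeq2, 108 with only the libraries compared, and 2 to 118 with a library left out (8 without A05, 2 without A06). The count for the difference between responses was 4, 23 from barcode counts, 10 from transcript counts, 10 without the filter, 21 by DESeq2, and 1 to 32 with a library left out. It was 524 in pure cancer against pure WT cells (261 without A05, 314 without A01, 342 without A07) and 338 in mixed cancer against mixed WT cells (167 without A04, 220 without A06). Median-of-ratios factors moved the median difference between responses from -0.17 to -0.06, and without A06 the median change on mixing in WT cells moved from -0.10 to -0.73. A02, with 73109 reads, limits what can be seen in mixed WT cells.

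The labels give wells but no pairing. Chosen after the data were seen, a fit with wells A01 to A04 and A05 to A08 as a block, which assumes that each run of 4 wells belongs together, called 119 genes on mixing in WT cells, 0 in cancer cells, 30 for the difference between responses, 653 in pure and 459 in mixed cancer against WT cells. Among the members it called Gsdmd on mixing in WT cells (2.44, adjusted p = 0.00129, edgeR) and also in mixed cancer against mixed WT cells (-1.78, adjusted p = 0.0156, edgeR), changed no other call, and gave -0.39 for Casp1 on mixing in WT cells. Over 2745 genes with a mean of at least 50 reads, the differences between the first and the second well of each group correlated by 0.063 to 0.28 between groups (Pearson r), which does not establish the pairing. The counts of alternatives above leave this block out.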
